A study of Rattus norvegicus with 30 samples.

Results

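The 5S_rRNA locus on chromosome 19 was followed through 30 male Fischer 344 rats as all cytosines with a deposited value between positions 67040000 and 67056000 of the rat build rn5. The authors called sites separately for the 2 comparisons of the study, aged with young rats (the age calls) and impaired (AI) with unimpaired (AU) aged rats (the AI-AU calls). In the age calls this window held 120 of 85484 CpG sites, 148 of 266960 CHG sites and 359 of 707223 CHH sites (H is A, C or T). In the AI-AU calls it held 104 of 80903 CpG, 129 of 256337 CHG and 296 of 687718 CHH sites. The locus was chosen on measured values, because its CpGs had lower ratios in aged than in young rats of this same series, so every comparison of aged with young rats below is a description without a test. The name 5S_rRNA is the one the study's own site table gives to 8 CpGs of the window, 4 as exon and 4 as promoter.

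Whole genome bisulfite sequencing was done on DNA of the prelimbic and infralimbic medial prefrontal cortex. Bisulfite turns unmethylated but not methylated cytosine into a base read as thymine, so the methylation ratio at a cytosine is the share of reads that still show cytosine, from 0 to 1. The groups were 10 young rats (5 to 6 months), 9 aged impaired rats (AI) and 11 aged unimpaired rats (AU), the aged rats being 17 to 22 months old and sorted by their performance on a set shifting task. The rat identifiers fall into 3 number series, called here A (1918 to 1936), B (2173 to 2191) and C (121412 to 121448), and no source used here says what a series stands for. Series A held 3 young, 5 AI and 6 AU rats, series B held 3 young, 4 AI and 4 AU rats, and series C held 4 young rats and 1 AU rat.

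5S ribosomal RNA is the smallest RNA of the large ribosomal subunit. Unlike the other ribosomal RNAs it is made by RNA polymerase III, from a promoter that lies largely inside the transcribed stretch, and its genes stand in tandem repeats of which many copies are kept silent. CpG methylation is a known mark of silent repeat copies. In the newer assembly GRCr8, RefSeq lists 15 ribosomal RNA genes on chromosome 19, all 119 bp long and with a median spacing of 1752 bp from one start to the next. How many copies rn5 holds at this place, and how reads that match several copies were placed, is not given in the sources used here. A ratio at one position is an average over the cells of the tissue and may also pool reads of several copies, and a change in the mixture of cells or copies cannot be told apart from a change within each.

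The 120 CpG positions of the window formed 2 clusters. The main cluster, called the block below, is the run of 101 CpG positions with gaps of at most 500 bp that holds the listed CpGs, and it spans 892 bp from 67047901 to 67048792. The other 19 positions, called the flank, lie between 67045557 and 67045678, and the 2222 bp between both clusters held no deposited CpG. Of the 101 block positions, 88 form 44 pairs of adjacent bases, the cytosines of one CpG on either strand, and 13 stand alone. All 30 rats had a value at 44 of the block's positions, and all 10 young rats at 76.

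The mean CpG ratio of the block fell into 2 clearly separated levels, and the aged rats of series A were at the low one. The 3 young rats of series A had block means of 0.440, 0.496 and 0.505, those of series B 0.464, 0.445 and 0.460, and those of series C 0.424, 0.45, 0.470 and 0.408. The 11 aged rats of series A lay between 0.0385 and 0.0983, with a median of 0.0663. The 8 aged rats of series B lay between 0.382 and 0.534, with a median of 0.423, and the 1 aged rat of series C was at 0.0516. When the 30 rats were put in order, the 12 lowest were the aged rats of series A and C, and the gap of 0.283 between the 12th rat and the 13th separated them from all others. No aged rat of series A overlapped with any young rat or with any aged rat of series B, whereas the aged rats of series B and the young rats were interleaved.

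**Figure D1:**
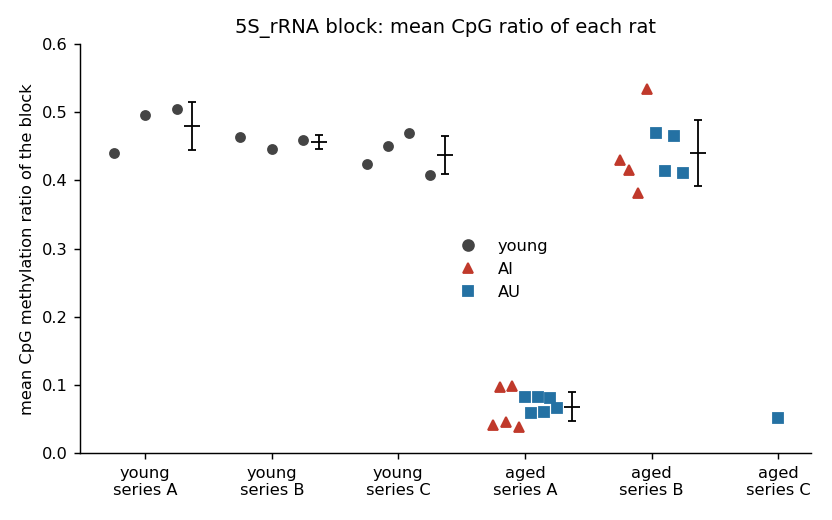
Mean CpG methylation ratio of the 5S_rRNA block (vertical axis, ratio from 0 to 1) in each rat, by age and identifier series. Each symbol is 1 rat, and the bar beside a group gives its mean and SD. The aged rats of series A (0.0385 to 0.0983) and the 1 aged rat of series C (0.0516) lie below all other rats, which lie between 0.382 and 0.534.

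As group means, the block ratio was 0.456 ± 0.0300 (SD, n = 10) in young rats and 0.216 ± 0.190 (SD, n = 20) in aged rats, a difference of -0.240. The aged mean fell in the gap between both levels, where no rat lay. Within series A, aged rats had 0.0685 ± 0.0214 (SD, n = 11) against 0.480 ± 0.0353 (SD, n = 3) in young rats, a 7.01-fold lower level. Within series B, aged rats had 0.440 ± 0.0477 (SD, n = 8) against 0.457 ± 0.00992 (SD, n = 3) in young rats. The difference of -0.0164 was smaller than the SD of the aged rats and larger than that of the 3 young rats, and the ranges overlapped, with 5 of 8 aged rats below the 3 young rats and 3 above them. The difference between aged rats of series A and series B was -0.372. As the age difference of the block was -0.412 in series A, -0.386 in series C with its 1 aged rat and -0.0164 in series B, it cannot be told apart from whatever else sets the aged rats of these series apart. The series split of the aged rats was known from earlier results of these data and is likewise given without a test.

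Young rats gave no sign of such a split. Their means were 0.480 in series A, 0.457 ± 0.00992 (SD, n = 3) in series B and 0.438 ± 0.0277 (SD, n = 4) in series C. The largest difference between series was 0.0424 and did not pass the threshold (exact permutation test over the 3 series, p = 0.190). Without young rat 1 of series A the largest difference was 0.0626 and the exact permutation p was 0.0286, so that this call rests on that rat.

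Impaired and unimpaired rats were the comparison that the choice of the locus did not use. In the AI-AU calls, which held 90 of the block's CpGs, the block mean was 0.230 ± 0.201 (SD, n = 9) in AI and 0.201 ± 0.183 (SD, n = 11) in AU rats, and the difference of 0.0287 did not pass the threshold (2-sided exact permutation test, p = 0.793, Benjamini-Hochberg adjusted p = 0.793 over 4 tests). Each group contained both levels. Over the same 90 CpGs the 5 AI rats of series A had 0.0385 to 0.0983 and the 6 AU rats of series A 0.0608 to 0.0859, while the lowest of the 4 AI rats of series B had 0.378 and their median was 0.421, and the 4 AU rats of series B had 0.409 to 0.462.

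Within series A the AI mean was 0.0641 ± 0.0306 (SD, n = 5) and the AU mean 0.0731 ± 0.0115 (SD, n = 6), a difference of -0.00902 (exact permutation test, p = 0.496). Within series B the AI mean was 0.437 ± 0.0637 (SD, n = 4) and the AU mean 0.430 ± 0.0255 (SD, n = 4), a difference of 0.00645 (exact permutation test, p = 0.857, where the smallest p this design allows is 0.0286). Neither difference was larger than the SD between rats. The AI minus AU difference in series A was -0.0155 apart from that in series B (exact permutation of AI and AU within series, p = 0.708).

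At single CpGs, 2 of the 90 block sites (2.22%) passed an unadjusted threshold of 0.05 between AI and AU rats, against 4.1% of all 80903 sites tested, and none passed after adjustment over all sites. The AI mean was higher at 65 block sites, lower at 24 and equal at 1, and the median difference was 0.0298. Over the whole table it was higher at 40109 sites, lower at 39755 and equal at 1039, with a median difference of 0. Series B, whose aged rats were at the high level, made up 4 of 9 AI and 4 of 11 AU rats. The part of this make-up in the block counts was not tested. The sites of one block share rats and reads, so the block counts are a description. Both sites that passed were lower in AI rats. At 67047955 the 4 AI rats with a value had 0.692 to 0.895 and the 4 AU rats all had 1, all 8 of them from series B (exact permutation test, p = 0.0286, n = 4 and 4). At 67048750 the means were 0.282 in AI and 0.488 in AU rats, with the highest AI rat level with the lowest AU rat and 2 of the 8 rats from series A (exact permutation test, p = 0.0571, n = 4 and 4). With at least 8 rats in each group, 0 of 54 block sites passed, against 4.37% of all 19710 such sites. With limma and series as a covariate 9 of 90 block sites passed, against 5.82% of all 80903, and again none after adjustment.

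Site by site, the ratio changed along the block in a similar way in young rats and in aged rats of series B. In young rats the ratio was highest at the low-coordinate end, with a mean of 0.699 ± 0.0222 (SD, n = 10) over the 25 CpGs from 67047901 to 67048147. It was 0.484 ± 0.0314 over the 20 CpGs from 67048207 to 67048404 and 0.274 ± 0.0245 over the 8 CpGs of the stretch bounded by the listed exon CpGs, which ends at 67048466. Over the 13 CpGs up to 67048511 it was 0.324 ± 0.0357, and over the 14 CpGs of the stretch bounded by the listed promoter CpGs, which begins at 67048512, it was 0.313 ± 0.0490. It was higher again, at 0.409 ± 0.0719, over the 21 CpGs from 67048614 to 67048792. All 10 young rats had a higher ratio in the first stretch than in the second and in the second than in the exon stretch, and all 10 had a higher ratio beyond the promoter stretch than within it.

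Aged rats of series B had 0.674 ± 0.0373 (SD, n = 8), 0.477 ± 0.0546, 0.255 ± 0.0287, 0.295 ± 0.0833, 0.285 ± 0.106 and 0.344 ± 0.133 over the same 6 stretches, from 0.832 to 1.01 times the means of the young rats of their series. Aged rats of series A had 0.162 ± 0.0577 (SD, n = 11), 0.0556 ± 0.0118, 0.0449 ± 0.0179, 0.0452 ± 0.0235, 0.0206 ± 0.0185 and, in the 10 rats with a value, 0.0173 ± 0.0344. Relative to the young rats of series A these were 0.231, 0.110, 0.165, 0.134, 0.06 and 0.0376 times as high. Each rat's mean was taken over the sites where it had a value, so these folds partly compare different sites. At 67047901 and 67047955, both in the first stretch, no aged rat of series A had a value. In series B the first stretch was the only one of the 6 in which aged and young rats of the series did not overlap, with all 8 aged rats (mean 0.674) below all 3 young rats (0.724 ± 0.00430, SD, n = 3). In the low rats of series A too the first stretch had the highest mean of the 6, and all 30 rats had a higher ratio in the first stretch than in the exon stretch.

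**Figure D2:**
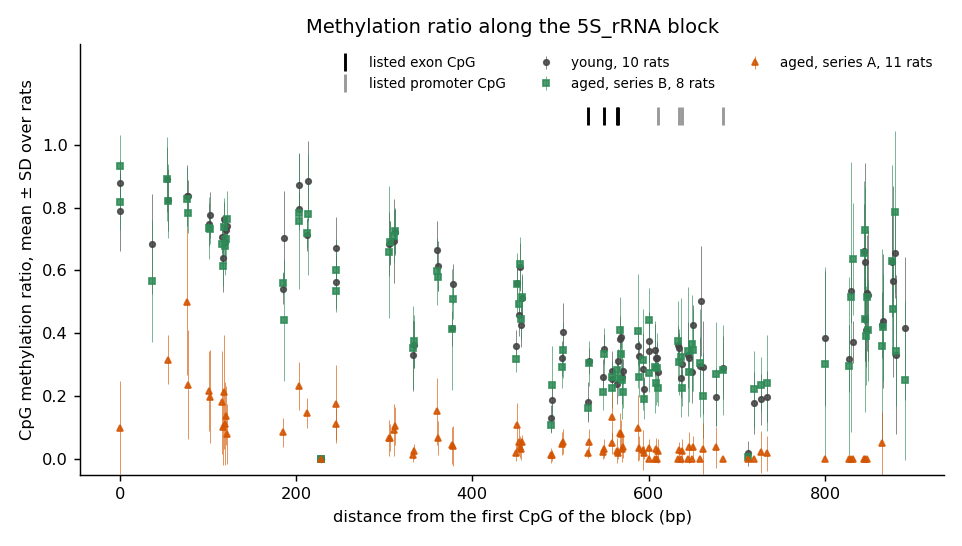
CpG methylation ratio along the 5S_rRNA block (vertical axis, mean ± SD over rats) against the distance from its first CpG in bp, for the CpGs with at least 3 rats of the group shown. The young rats and the aged rats of series B lie close together from the first stretch (means 0.699 in young rats of all series and 0.674) to the exon-listed stretch (0.274 and 0.255), and the aged rats of series A lie below it (0.162 and 0.0449). Ticks at the top mark the listed CpGs.

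Single sites spread widely around this shape. Young means lay between 0 and 0.889, and their median over 101 sites was 0.411. At the 84 sites with at least 3 aged and 3 young rats of series A, the means of its aged rats reached at most 0.498, at 67047978, and had a median of 0.0368. At the 76 such sites of series B the means of its aged rats reached 0.891 and had a median of 0.347. The mean of the aged rats of series A was under 0.1 at 65 of 84 sites and exactly 0 at 19. Counted as single values, 42.1% of the 765 ratios of these rats were 0 and 0.261% were above 0.5. In aged rats of series B 3.81% of 708 ratios were 0 and 38.6% were above 0.5, close to the 2.67% and 37.5% of 938 ratios in young rats.

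The aged mean was below the young mean at 95 of the 101 block sites, above it at 4 and equal at 2. Within series A it was below at 83 of 84 sites, by a median of 0.364 and by up to 0.790 at 67047902. Within series B it was below at 47 and above at 28 of 76 sites, and the differences ran from -0.170 to 0.135 around a median of -0.0217. The values of aged rats of series A lay entirely below those of aged rats of series B at 62 of 84 block sites, where 0.788% of 42276 sites of the whole series did. The block thus held 18.6% of all such sites. The values of aged rats of series A lay entirely below those of all young rats at 73 of 84 block sites, against 0.631% of 79357 sites. The values of aged rats of series B did so at 0 of 100 block sites, against 0.566% of 44333 sites. These percentages are the background, and as the locus was chosen on related values nothing further is read from them.

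The 8 CpGs listed for 5S_rRNA showed the split at each site, with the highest aged rat of series A below the lowest aged rat of series B and below the lowest young rat at all 8. The study listed them because they differed between these same aged and young rats and correlated with RNA. Lower aged levels at all 8 therefore follow in part from the listing and are a description. At the first listed exon CpG, 531 bp from the first CpG of the block, aged rats of series A had 0 to 0.0444 with a median of 0.025, aged rats of series B 0.113 to 0.216 with a median of 0.166, and young rats 0.114 to 0.318 with a median of 0.171. It was the lowest of the 8 in young rats, and its partner on the other strand, 67048433, had a young mean of 0.312 ± 0.0410 (SD, n = 10). At the exon CpG 67048450 the ranges were 0 to 0.0833 in aged series A, 0.234 to 0.5 in aged series B and 0.263 to 0.451 in young rats. The 2 strands of the next listed CpG, 67048465 and 67048466, had medians of 0 and 0.0208 in aged series A, 0.300 and 0.267 in aged series B and 0.237 and 0.314 in young rats. At 67048465 the groups came closest, with 0.125 in the highest rat of aged series A and 0.136 in the lowest young rat.

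The listed promoter CpGs gave the same picture. At 67048512 aged rats of series A had 0 to 0.111, aged rats of series B 0.145 to 0.301 and young rats 0.212 to 0.320. At 67048535 the ranges were 0 to 0.0732, 0.151 to 0.474 and 0.254 to 0.439 in the same order, and at 67048539 they were 0 to 0.105, 0.173 to 0.345 and 0.197 to 0.371. At the last, 684 bp from the first CpG of the block, all 7 aged rats of series A with a value were at 0, while 7 aged rats of series B had 0.118 to 0.5 and young rats 0.111 to 0.467. At 67048466, 67048512, 67048535 and 67048539, 3 of the 8 aged rats of series B were below the lowest young rat. The 1 aged rat of series C had 0 at 5 of the 7 listed CpGs where it had a value, 0.0323 at the first exon CpG and 0.0333 at 67048539. Between AI and AU rats the differences at the 8 sites ran from 0.00264 at 67048512 to 0.140 at the last promoter CpG, and none passed the unadjusted threshold.

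**Figure D3:**
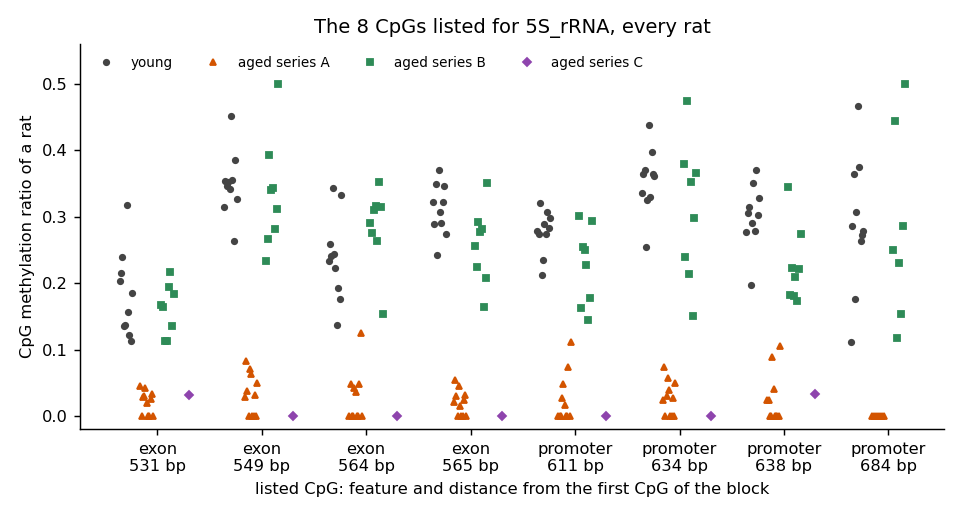
CpG methylation ratio (vertical axis) of every rat at the 8 CpGs listed for 5S_rRNA, ordered by distance from the first CpG of the block. Each symbol is 1 rat with a value. At all 8 sites the aged rats of series A (triangles, at most 0.125) lie below every young rat and every aged rat of series B.

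At the ends of the block the values rested on few rats. The first CpG, 67047901, had 1, 1, 1, 0.875 and 0.778 in 5 aged rats of series B and 0.6 to 0.962 in 6 young rats, and no aged rat of series A had a value there. At its partner 67047902, 5 aged rats of series A had a mean of 0.1 against 0.816 in 8 aged rats of series B and 0.879 in 10 young rats. The last CpG, 67048792, had values of 0.6, 0.2, 0.2 and 0 in 4 aged rats of series B and 0 to 0.667 in 7 young rats. The highest young mean of the block, 0.889, was at 67047955, where no aged rat of series A had a value and the 8 of series B had a mean of 0.891. The 4 CpGs whose aged mean was above the young mean, 67047901, 67047955, 67048577 and 67048781, had values in 0, 0, 3 and 0 aged rats of series A, so that their aged means came mostly or only from series B.

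A few CpGs were at or near 0 in the middle of methylated neighbours. At 67048129 all 30 rats had a ratio of 0, as did every rat with a value at its partner 67048130, while 67048146 close by had a young mean of 0.562. At 67048614 the young mean was 0.0178, the 8 aged rats of series B had a mean of 0.00595 and the 5 aged rats of series A with a value were at 0. With ratios this low in young rats, these sites leave no room for a lower level.

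The difference between strands depended on the sites used. Over the 44 CpGs with both cytosines deposited, the ratio of the plus strand minus that of the minus strand was -0.00539 ± 0.0312 (SD, n = 30 rats). At the pairs with a value in every rat on both strands it was -0.0447. Over the 44 CpGs it was 0.00861 ± 0.0217 (SD, n = 11) in aged rats of series A, 0.00385 ± 0.0385 (SD, n = 8) in those of series B and -0.0270 ± 0.0248 (SD, n = 10) in young rats, of which 1 of 10 had the higher plus strand. All of these were smaller in size than the difference of -0.372 between the aged rats of both series.

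In the flank few aged rats of series A had values. The flank's mean CpG ratio was 0.374 ± 0.0615 (SD, n = 10) in young rats and 0.401 ± 0.0771 (SD, n = 8) in aged rats of series B in the age calls. Without 67045599, where both sets of calls disagree, these means were 0.373 and 0.368, and in the AI-AU calls, which hold fewer flank CpGs, aged rats of series B had 0.344 with that site and 0.326 without it. Of the 11 aged rats of series A, 8 had no flank value, and the other 3 had 0, 0.0410 and 0.2 over 8, 9 and 3 of the 19 sites, against 12 to 19 sites in young and 8 to 19 in aged rats of series B. These means therefore rest on different sites. At the 3 flank CpGs with at least 3 aged rats of series A, their values lay entirely below those of aged series B at 1 and entirely below those of all young rats at 0. The aged rat of series C had 0.0179. Between AI and AU rats the flank means were 0.221 ± 0.163 (SD, n = 6) and 0.281 ± 0.160 (SD, n = 6), and the difference did not pass the threshold (exact permutation test, p = 0.528, adjusted p = 0.704 over 4 tests). One of the flank's CpGs, 67045599, is the only CpG of the window whose values differ between both sets of calls. There the 4 AI rats of series B were listed at 0.294, 0.188, 0.2 and 0.538 in the AI-AU calls and at 1 in the age calls. AI rats 2 and 3, both of series A, were at 0 in the AI-AU calls and had no value in the age calls. The 3 AU rats with a value, all of series B, were at 1 in both. The AI minus AU difference of -0.797 thus rests on values that disagree and on unlike series at this site. Without it, a choice made after seeing the data, the flank means in the AI-AU calls were 0.222 for the 6 AI rats and 0.256 for the 6 AU rats (p = 0.729 by the exact permutation test). In the age calls the flank difference between AI and AU was 0.0115. Next to it, all 10 young rats were at 0 at both 67045600 and 67045601.

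The number of CpGs with a value moved with the split. A rat has a value at a site only where at least 5 reads covered it. Aged rats of series A had a value at 52.5% to 88.1% of the block's 101 CpGs, aged rats of series B at 72.3% to 98.0% and young rats at 83.2% to 100%, and the aged rat of series C at 61.4%. Of all deposited CpGs, aged rats of series A had a value at 54.3% to 79.7%, the aged rat of series C at 75.2% and aged rats of series B at 26.3% to 55.7%. The median of aged series A was thus below that of aged series B in the block (68.3% against 90.1%) and above it over all CpGs (66.5% against 41.5%), and the part of coverage in the split was not tested. At the 44 CpGs with a value in every rat, where all rats are compared at the same sites, aged rats of series A had 0.0618 ± 0.0171 (SD, n = 11), aged rats of series B 0.389 ± 0.0354 (SD, n = 8) and young rats 0.412 ± 0.0231 (SD, n = 10). The difference between the series of aged rats was -0.327 at these sites, and no rat of series A overlapped with one of series B.

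**Figure D4:**
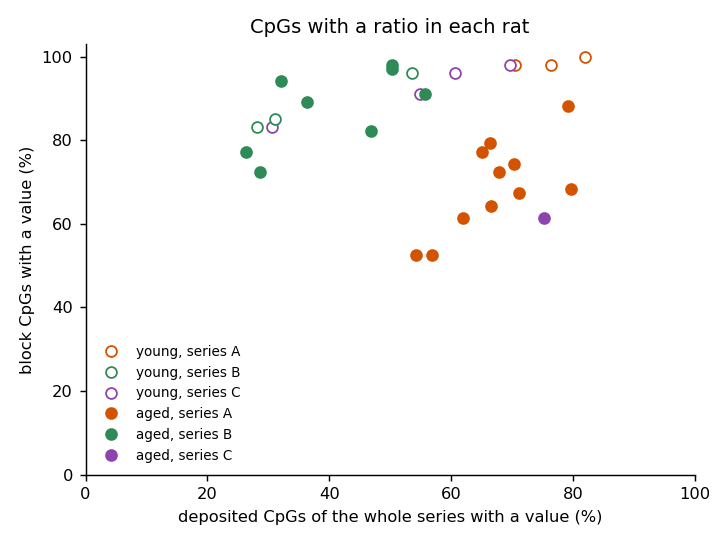
Share of the block's 101 CpGs with a value (vertical axis, percent) against the share of all 85484 deposited CpGs with a value (horizontal axis, percent), 1 symbol per rat. Aged rats of series A and C (filled, right) had values at 52.5% to 88.1% of the block's CpGs with 54.3% to 79.7% of all CpGs, and aged rats of series B (filled, left) at 72.3% to 98.0% with 26.3% to 55.7% of all CpGs.

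Outside CpGs the block was nearly free of methylation. The mean ratio over its 115 CHG sites was 0.0294 ± 0.00460 (SD, n = 10) in young rats, and over its 300 CHH sites 0.0136 ± 0.00246 (SD, n = 10). Over all deposited sites the means per rat ran from 0.0217 to 0.0238 for CHG and from 0.0158 to 0.0185 for CHH. The study states only a lower bound for bisulfite conversion, so unconverted cytosines may be part of ratios this low. For its own comparison by age it left out non-CpG sites under 0.1 in both age groups. At the CHG sites of the age calls aged rats of series A lay below the other groups, but which sites entered the mean decided whether the groups overlapped. Aged rats of series A had 0.00674 to 0.0183, aged rats of series B 0.0236 to 0.0412 and young rats 0.0225 to 0.0393, and the aged rat of series C had 0.0137. In the AI-AU calls, with 105 CHG sites, aged rats of series A had 0.00674 to 0.0183 and aged rats of series B 0.0163 to 0.0345, so that 3 of the 11 overlapped. For CHH sites the ranges were 0.00597 to 0.0130 in aged series A, 0.00922 to 0.0185 in aged series B and 0.0110 to 0.0190 in young rats, so that these groups overlapped. Over all deposited CHG sites aged rats of series A and B had 0.0228 ± 0.000403 (SD, n = 11) and 0.0227 ± 0.000614 (SD, n = 8).

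A young mean above 0.1 was found at 5 of the 115 CHG sites of the block (4.35%, against 4.27% of all CHG sites) and 5 of the 300 CHH sites (1.67%, against 3.14% of all CHH sites). The highest was the CHG site 67047918, with 0.889 to 1 in 5 young rats and a mean of 0.935 in 5 aged rats of series B, and with no value in aged rats of series A. The CHG site 67048555 had a young mean of 0.347, the CHG site 67048613 one of 0.232 and the CHH site 67047936 one of 0.321. At 67048613, next to the CpG 67048614, 5 aged rats of series A were at 0 and 8 of series B had a mean of 0.256. At 67048187, with values in all of these rats, the CHG means were 0.129 in aged series A, 0.173 in aged series B and 0.168 in young rats. Without the 5 high CHG sites the block means were 0.0114 ± 0.00333 (SD, n = 11) in aged series A, 0.0193 ± 0.00501 (SD, n = 8) in aged series B and 0.0177 ± 0.00349 (SD, n = 10) in young rats, and the ranges overlapped.

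**Figure D5:**
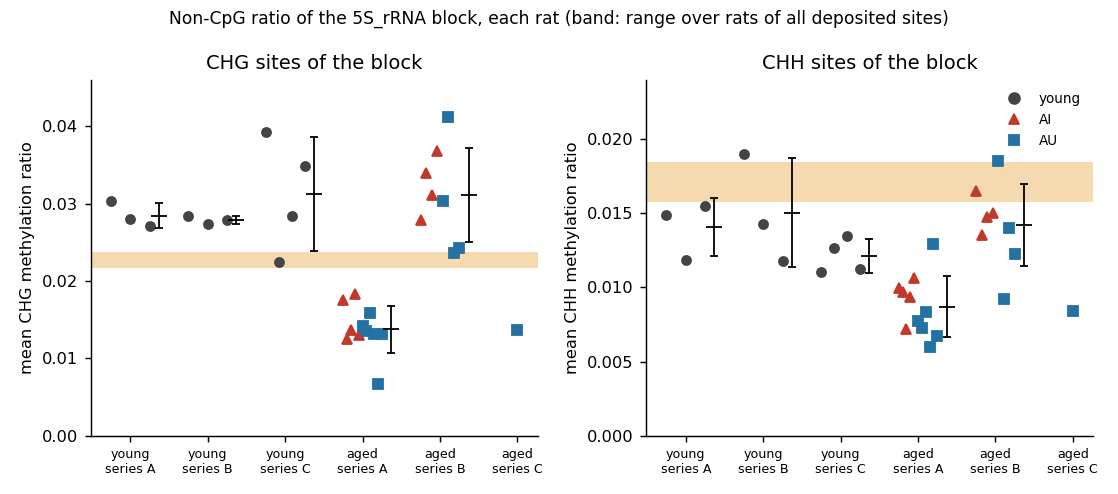
Mean methylation ratio of the block's CHG (left) and CHH (right) sites in each rat (vertical axes, ratio), by age and identifier series. Symbols are rats, bars give mean and SD, and the band is the range over rats of the mean over all deposited sites. At CHG sites of the age calls, plotted here, the aged rats of series A (0.00674 to 0.0183) lie below those of series B (0.0236 to 0.0412), whereas in the AI-AU calls and without the 5 high CHG sites they overlap, as they do at CHH sites.

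Between AI and AU rats the CHG mean of the block was 0.0210 ± 0.00757 (SD, n = 9) and 0.0170 ± 0.00737 (SD, n = 11), and the CHH mean 0.0114 ± 0.00269 (SD, n = 9) and 0.00981 ± 0.00365 (SD, n = 11). Neither difference passed the threshold (exact permutation tests, p = 0.254 and p = 0.303, adjusted p = 0.607 for both over 4 tests). With only sites that at least 8 rats of each group covered, the CHG difference was 0.00513 and passed an unadjusted threshold (exact permutation test, p = 0.0126).

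To find CpGs elsewhere with the most similar levels, each of 30620 CpGs outside the window with a value in at least 20 rats was compared with the block mean of the same rats by the mean absolute difference, and a CpG within 1000 bp of a closer one was passed over. The median of this difference was 0.495. The closest CpG was at position 46826999 of chromosome 14 with 0.0948 over 30 rats, followed by 39271387 of chromosome 6 with 0.0979 over 28 rats, 46702753 of chromosome 14 with 0.105 over 30 rats, 5827189 of chromosome 19 with 0.107 over 30 rats and 13561054 of chromosome 1 with 0.110 over 30 rats. The study's tables name a gene at 1 of these 5, LOC257642 at 46702753. Their aged rats of series A had means of 0.225, 0.141, 0.147, 0.209 and 0.202, and their aged rats of series B 0.451, 0.426, 0.397, 0.383 and 0.398, in the order given. Their young rats of series A had means of 0.406, 0.233, 0.220, 0.330 and 0.340, and those of series B 0.480, 0.536, 0.430, 0.439 and 0.352, so that at 39271387 and 46702753 young rats of series A were low as well. The gap between the series of aged rats was narrower at each of them than in the block.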

How the data were processed

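The authors converted mPFC DNA with bisulfite, sequenced it, trimmed the reads (Trimmomatic), filtered for unconverted bases and aligned to rn5 (BSMAP). The effect of that filter on ratios at non-CpG sites was not tested. The deposited values are the methylation ratio per rat and cytosine, a fraction from 0 to 1, missing under 5 reads, at sites with values in at least 3 rats of each group. The deposited tables used here give no read numbers, so the depth behind a single rat's ratio is unknown above 5 reads, where a ratio moves in steps of 0.2, and no interval from counts could be made. Group depths that the study states for its listed sites were not used here. The authors' group means and SDs were not used. All 150 columns of single rats were.

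The members and lists were chosen with earlier results of these data known. The 8 CpGs listed in the study's tables, the first and last block CpG, those with the highest and lowest young mean and those with an aged mean above the young mean were named singly. Other sites were chosen after their values were seen.

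Per-rat means over sites with a value were compared by exact permutation tests of the difference of means, 2-sided, and single CpGs by Welch's test over the whole table with Benjamini-Hochberg adjustment. Scripts were tested on simulated data. Nothing says how rats relate within a series, so p-values measure the spread between these rats. Alternatives were medians, common sites, at least 8 rats per group, gaps of 100 or 1000 bp, the listed bounds, the other set of calls, leaving out a series or a rat, and limma, with an offset of 0.05 for logits. The software was limma 3.58.1 under R 4.3.3, and scipy 1.17.1, pandas 2.3.3, matplotlib 3.10.9 and numpy 2.4.6 under Python 3.11.15.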

Additional observations from a re-analysis of the deposited data

How the results depend on the processing

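Block gaps of 100 or 1000 bp gave the same block, and the AI minus AU difference of the block CpGs stayed short of the threshold under all alternatives tried, with p from 0.404 to 0.942. It was 0.0822 without series A, 0.0137 without series C and, with its sign turned, -0.00595 without series B. Over the 20 fits without 1 rat it ran from -0.00842 without AI rat 9 to 0.0548. The flank difference turned to 0.0115 in the age calls and to 0.0243 without series A, and it could not be computed at sites shared by all rats or by 8 per group, since none were left. The CHG difference passed with at least 8 rats per group (0.00513). Block CpGs past the unadjusted threshold numbered 4 of 81 without series A. The share of all CpGs under that setting was not computed, so nothing is read from this count. They numbered 0 of 54 with at least 8 rats per group, against 4.37% of all CpGs. With limma and series as a covariate they numbered 9 of 90, of which 3 were higher in AI, against 5.82% of all CpGs. Under each of these settings none passed after adjustment. The young series difference ran from 0.0299 to 0.0626 over the 10 fits without 1 rat, and passed without young rat 1.

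The aged minus young difference of the block CpGs was -0.173 within the listed bounds, -0.0489 without series A and -0.389 without series B. For CHG it was -0.00869 in the main setting and -0.00144 with medians, -0.00358 at shared sites and -0.00421 with at least 8 rats per group. It was -0.000600 without series A and -0.0163 without series B. For CHH it was -0.00267 in the main setting, 0 with medians and -0.00155 with at least 8 rats per group. Without series A the CHH difference was 0.000221 and without series B -0.00426. The difference between aged series A and B was -0.342 at CpGs with a value in every aged rat of both series, a larger set than the 44 CpGs with a value in all 30 rats, and -0.246 within the listed bounds, and ran from -0.380 to -0.358 over the 19 fits without 1 rat. The strand difference was -0.0447 at the pairs that all rats shared. Where a series was left out, fewer rats were compared. The cause of the other shifts was not tested. No paired analysis was possible because the labels give no replicate numbers that groups share. The depth behind each rat's ratio was not known beyond the minimum of 5 reads and may differ between sites and rats.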

Other observations

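The name 5S_rRNA is also used in the study's tables on chromosome 12, where 2 CpGs had values. At position 1491162 of rn5 the deposited ratio had a mean of 1 in 3 young rats and 0.857 in 8 aged rats. At position 1491156 the deposited ratio had a mean of 0.835 in 4 young rats and 0.827 in 6 aged rats, against block means on chromosome 19 of 0.456 in young and 0.216 in aged rats.

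Aged rats of series A lay entirely below those of series B at 333 of 42276 CpGs of the whole series (0.788%) and entirely above them at 135. Of the 333, 63 were in the window on chromosome 19, at 62 of 84 block CpGs and 1 of 3 flank CpGs with at least 3 rats of each. The mitochondrial genome held 96, and the megabases with most of the others were on chromosome 1 with 36 and on chromosome 14 with 31.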
